A study of Mus musculus with 6 samples.

Results

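A set of 10 genes of the extracellular matrix and its remodelling were followed across 6 bulk RNA sequencing libraries of dendritic cells (DC) sorted from mouse tumors. They encode the matrix proteins Fn1, Thbs1, Emilin2 and Tgfbi, the heparan sulfate editing enzyme Sulf2, the matrix metalloproteinases Mmp12, Mmp13, Mmp14 and Mmp19, and the metalloproteinase inhibitor Timp2. The 10 genes were chosen by name, from 23224 gene symbols, with their values in these same libraries already seen. Their differences between groups are therefore given as a description, with no p-value printed. Whether a member passed the threshold of a fit over all genes is stated as part of that description and is no test of the member.

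The libraries fall into 3 groups of 2, all from tumors of C57BL/6 mice taken on day 7 after MC57-SIY cells were placed under the skin. MC57 is a fibrosarcoma line of mouse origin and SIY a model antigen peptide, so the tumor cells are themselves of the fibroblast lineage. The first group is CD103+ DC1 from Rag2-/- hosts (replicates 2 and 3), the second ISG+ DC from Rag2-/- hosts (replicates 2 and 3) and the third ISG+ DC from WT hosts (replicates 1 and 2). Rag2-/- mice have no mature T or B cells, and no CD103+ DC1 library of WT hosts is among the samples analysed here. Tumors were pooled before sorting, and 2 independent experiments were done per sample type, so the spread between libraries is that between pools. The sources used here give neither the sort gate of ISG+ DC nor the age of the mice. Values below are in CPM, a library-size-scaled count, and are always listed in the order of groups and replicates given here.

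The matrix of a tissue is a meshwork of secreted glycoproteins and collagens that cells bind through integrins and other receptors. Metalloproteinases cut matrix proteins and the proteins stored in them, most as secreted proenzymes that must first be activated, and TIMP proteins bind and block the active enzymes. Fibroblasts make most of the collagen in a tissue, while macrophages and monocyte-derived cells are known for fibronectin, thrombospondin-1, TGF-beta-induced protein and macrophage elastase.

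The DC1 and cDC2 identity genes separated CD103+ DC1 from ISG+ DC, while the interferon-stimulated genes that the name ISG+ may refer to were not examined here. The 9 DC1 identity genes summed to 9769 and 5402 CPM in CD103+ DC1 against 1004 to 1365 CPM in the 4 ISG+ DC libraries, and the 8 CD11b+ cDC2 identity genes to 210 and 200 CPM against 2559 to 3504 CPM. Between populations 8 of the 9 DC1 genes fell and 7 of the 8 cDC2 genes rose. The 9 pan-DC genes summed to between 14499 and 20378 CPM in all libraries, but did not all stay level. In edgeR's fit over all genes, Itgax rose (log2 1.66, adjusted p = 0.00303) and Flt3 fell (-1.80, 0.0321) between populations. Flt3 was also lower in WT than in Rag2-/- ISG+ DC (-2.29, 0.0411). Both Flt3 calls were lost in some of the other settings run. Macrophage and monocyte genes were also high in the ISG+ DC libraries, at 3381 to 13608 CPM summed over 21 genes. Total estimated counts ran from 6023510 in CD103+ DC1 replicate 3 to 15368616 in Rag2-/- ISG+ DC replicate 2. The 2 CD103+ DC1 libraries were the least alike of any group (Spearman correlation across genes of 0.882, against 0.934 and 0.921 in the other groups), and replicate 2 correlated better with Rag2-/- ISG+ DC replicate 2 (0.900). Some of the results that move without one of these libraries are given with and without it. For the host differences of the members, that dependence is given mostly as counts in the closing section.

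Between populations within Rag2-/- hosts, the matrix genes were higher in ISG+ DC for 7 of 10 members in edgeR's fit over all genes (adjusted p under 0.05), and lower for none. These were Fn1, Tgfbi, Emilin2, Thbs1, Sulf2, Mmp12 and Mmp19. Of all 13223 genes tested, 3.69% passed, 2.83% as higher and 0.862% as lower in ISG+ DC. The median log2 fold change of the 10 members was 2.77, beside -0.02 over all genes tested. The 2 groups did not overlap for 8 members, all higher in ISG+ DC. Over all genes 45.9% did not overlap, 23.9% with ISG+ DC higher and 22% with ISG+ DC lower. The members were picked with this contrast in view, so their counts describe them and are no test.

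Between hosts, 1 of the 10 genes, Thbs1, passed as higher in WT ISG+ DC than in Rag2-/- ISG+ DC, and none passed as lower. Of all genes tested 0.552% passed, 0.287% as higher and 0.265% as lower in WT. The median log2 fold change of the members was 1.11, beside -0.03 over all genes. The groups did not overlap for 9 members, of which 8 were higher in WT and Sulf2 was lower. Over all genes 44.5% did not overlap, 21.4% with WT higher and 23.1% with WT lower. Both comparisons use the same 2 Rag2-/- ISG+ DC libraries, so they are not independent of each other. Summed over the 10 genes, the level was 1348 and 897 CPM in CD103+ DC1, 5234 and 6875 CPM in Rag2-/- ISG+ DC and 9866 and 11906 CPM in WT ISG+ DC, which is 0.0869% to 1.14% of all counts.

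**Figure D1:**
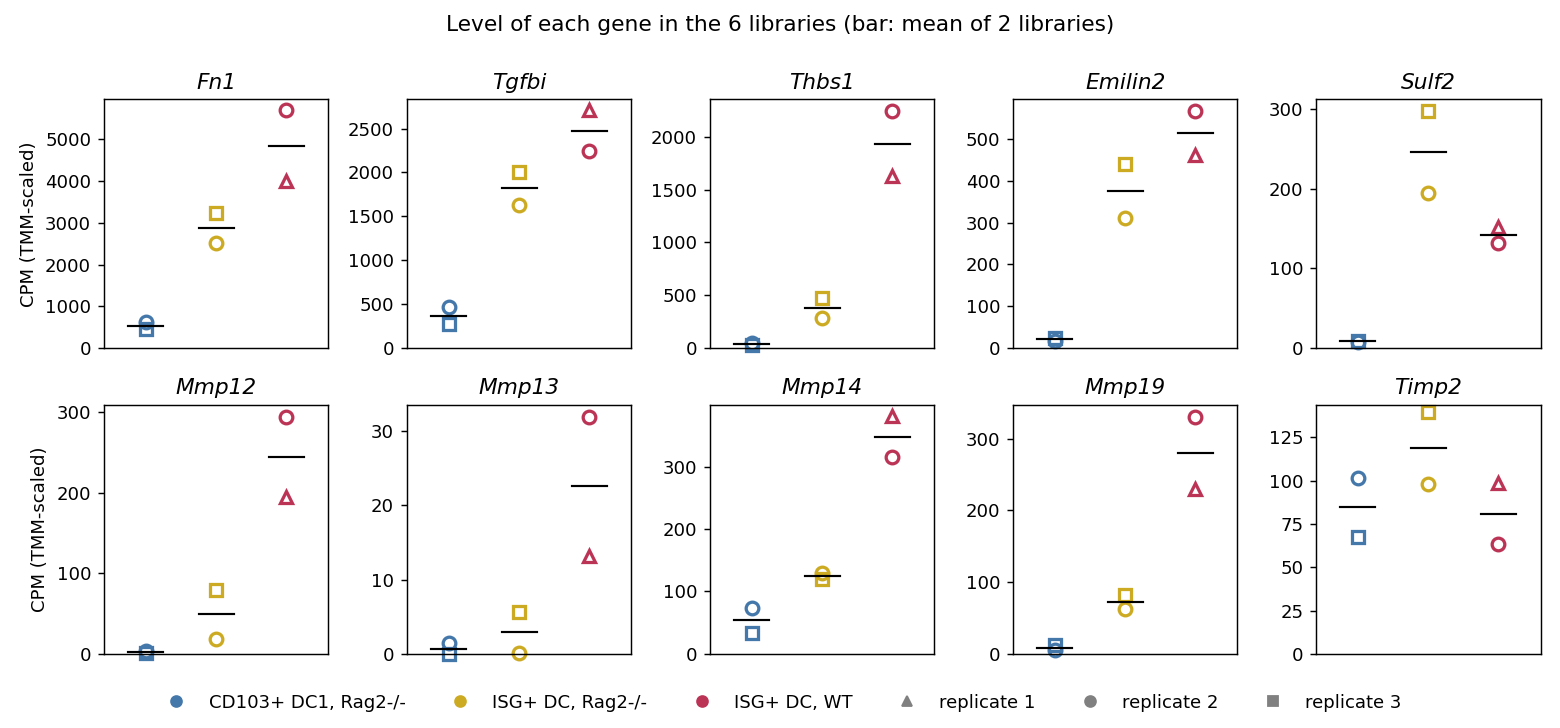
Each panel shows 1 of the 10 genes, with CPM on a linear axis from 0 and 1 symbol per library in the 3 groups. The 2 CD103+ DC1 symbols lie lowest in every panel other than Mmp13 and Timp2, whose groups overlap.

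Fibronectin, encoded by Fn1, is the glycoprotein that links cells to the matrix through integrins. Its level was 624 and 448 CPM in CD103+ DC1, 2508 and 3232 CPM in Rag2-/- ISG+ DC and 3994 and 5685 CPM in WT ISG+ DC. No group overlapped another, and the 2 WT libraries differed by 1.42 times. ISG+ DC were 5.35-fold above CD103+ DC1 (log2 fold change 2.42 ± 0.27 SE) and WT 1.69-fold above Rag2-/- ISG+ DC (0.75 ± 0.26), the latter without passing.

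Tgfbi encodes a secreted protein induced by TGF-beta that binds collagen and integrins. It was found at 465 and 276 CPM in CD103+ DC1, 1628 and 2008 CPM in Rag2-/- ISG+ DC and 2709 and 2245 CPM in WT ISG+ DC. The populations stood 4.91-fold apart (log2 2.29 ± 0.29 SE), and the hosts 1.36-fold (0.45 ± 0.27), where the higher Rag2-/- library lay close under the lower WT library.

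Emilin2, an elastin-microfibril interface protein, was low in CD103+ DC1 and more than 10 times higher in every ISG+ DC library. The libraries of CD103+ DC1 had 18.0 and 23.6 CPM, those of Rag2-/- ISG+ DC 311 and 439 CPM and those of WT ISG+ DC 462 and 567 CPM. The difference between populations was 18.1-fold (log2 4.18 ± 0.32 SE), and that between hosts 1.37-fold (0.46 ± 0.28), about as large as the 1.41 times between the 2 Rag2-/- libraries.

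Thrombospondin-1, encoded by Thbs1, is a matricellular protein that binds CD47 and CD36 and can activate latent TGF-beta. Thbs1 stood at 46.8 and 26.4 CPM in CD103+ DC1, 283 and 471 CPM in Rag2-/- ISG+ DC and 1631 and 2242 CPM in WT ISG+ DC. It is the member with a step between each pair of neighbouring groups that passed: 10.2-fold between populations (log2 3.36 ± 0.37 SE) and 5.14-fold between hosts (2.36 ± 0.35). Without Rag2-/- ISG+ DC replicate 2 the host difference no longer passed, at 2.04 on the log2 scale.

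Sulf2 encodes an extracellular sulfatase that removes 6-O-sulfate groups from heparan sulfate, which alters the binding of growth factors. It had the highest fold change between populations among the 10, and it alone was lower in WT hosts with no overlap. Sulf2 was at 7.85 and 9.08 CPM in CD103+ DC1, 194 and 298 CPM in Rag2-/- ISG+ DC and 152 and 132 CPM in WT ISG+ DC. The populations differed 29.2-fold (log2 4.87 ± 0.37 SE). WT ISG+ DC were 1.73-fold below Rag2-/- ISG+ DC (log2 -0.79 ± 0.31), a difference that passed only without CD103+ DC1 replicate 3, a library outside that comparison.

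**Figure D2:**
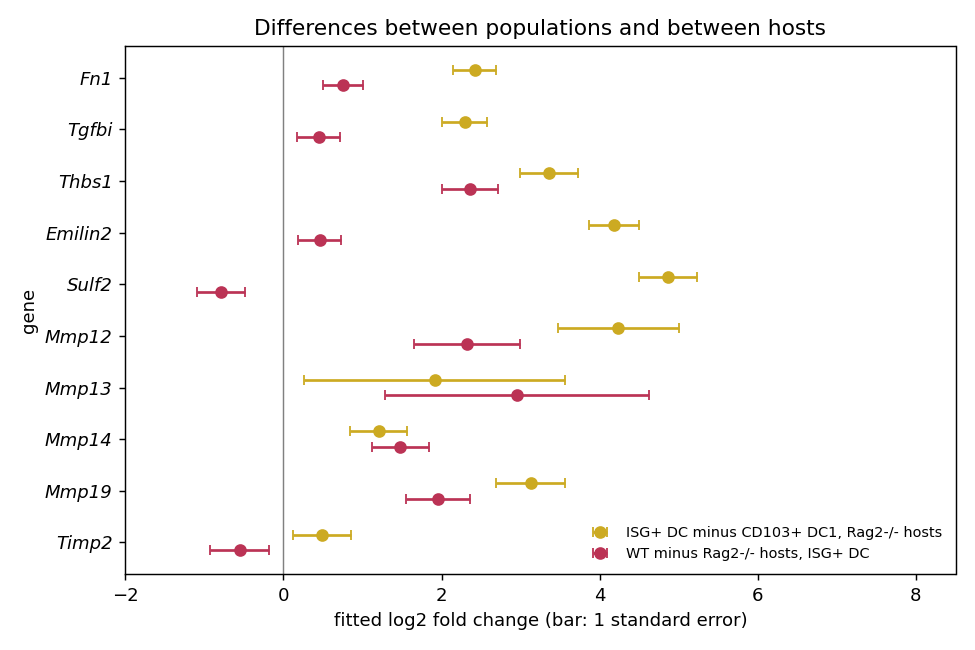
Log2 fold changes of the 10 genes from edgeR's fit over all genes, with standard errors as bars, for ISG+ DC against CD103+ DC1 in Rag2-/- hosts and for WT against Rag2-/- ISG+ DC. Sulf2 has the highest value between populations (4.87) and a negative one between hosts (-0.79), while Mmp13 has the widest bars.

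The 4 metalloproteinases split into 2 that passed between populations, Mmp12 and Mmp19, and 2 that did not, Mmp13 and Mmp14. Mmp12 is macrophage elastase, a secreted enzyme that cuts elastin. It measured 3.86 and 0.856 CPM in CD103+ DC1, 18.4 and 79.3 CPM in Rag2-/- ISG+ DC and 194 and 294 CPM in WT ISG+ DC. The groups did not overlap, yet the 2 Rag2-/- ISG+ DC libraries differed by 4.31 times and the 2 CD103+ DC1 libraries by 4.50 times. ISG+ DC were 18.9-fold above CD103+ DC1 (log2 4.24 ± 0.77 SE). That value was 2.84 without Rag2-/- ISG+ DC replicate 3 and 5.81 without CD103+ DC1 replicate 2, and it no longer passed with limma-voom (3.98) or in a fit of the 4 libraries alone (4.30). Between hosts the difference was 5.0-fold (2.32 ± 0.67) and did not pass. With Rag2-/- ISG+ DC replicate 3 left out it was 3.73 and passed. Leaving out replicate 2 of that group instead gave 1.62, which did not pass.

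Mmp19 is a secreted metalloproteinase that cuts basement membrane proteins. Its libraries read 5.12 and 11.8 CPM in CD103+ DC1, 63.1 and 81.5 CPM in Rag2-/- ISG+ DC and 230 and 331 CPM in WT ISG+ DC. The 3 groups formed 3 separate steps, 8.75-fold between populations (log2 3.13 ± 0.44 SE) and 3.88-fold between hosts (1.95 ± 0.41). The first passed in every setting run, and was 3.84 without CD103+ DC1 replicate 3. The second did not pass.

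Mmp14 is the membrane-bound metalloproteinase that cuts fibrillar collagen at the cell surface and activates pro-MMP2. It was detected at 74.2 and 34.1 CPM in CD103+ DC1, 130 and 120 CPM in Rag2-/- ISG+ DC and 382 and 316 CPM in WT ISG+ DC. No group overlapped another, but CD103+ DC1 replicates differed by 2.18 times. The difference of 2.30-fold between populations (log2 1.2 ± 0.36 SE) did not pass. It passed at 1.87 without CD103+ DC1 replicate 2, and was 0.78 without replicate 3. Between hosts it was 2.78-fold (1.48 ± 0.36), also without passing, and stayed between 1.33 and 1.6 with any 1 library left out.

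Mmp13 is an interstitial collagenase best known from cartilage and bone. It was the lowest of the 10 genes, with estimated counts of 21 and 0 in CD103+ DC1, 2 and 78 in Rag2-/- ISG+ DC and 148 and 320 in WT ISG+ DC. In CPM these are 1.40 and 0, 0.126 and 5.69, and 13.2 and 31.9, so the 2 Rag2-/- ISG+ DC libraries differed by 45.2 times and overlapped with CD103+ DC1. The fitted log2 fold change between populations was 1.91 ± 1.65 SE and turned to -2.50 without Rag2-/- ISG+ DC replicate 3, so its direction rests on that library. The WT libraries lay above all others. Between hosts the fitted value was 2.96 ± 1.67 and did not pass. Leaving out Rag2-/- ISG+ DC replicate 2 gave 1.99, and leaving out replicate 3 gave 7.37.

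The stretches just before the annotated start sites of 3 of these protease genes are shown because Mmp12 and Mmp13 share a short motif there that the other members found lack. The sequences are RefSeq's, on build GRCm38.p6 and not the mm9 build of the counts. RefSeq windows were at hand for 7 of the 10 members, all except Fn1, Thbs1 and Mmp19. Each line gives the last 100 bases before the start site, 5′ to 3′ on the gene's strand, which is the forward strand for all 3. Capitals mark TGANTCA, the letters of the AP-1 motif, in Mmp12 and Mmp13, and GGGCGG, the GC box, in Mmp14.
Mmp12, second annotated start site, chr9:7347274-7347373: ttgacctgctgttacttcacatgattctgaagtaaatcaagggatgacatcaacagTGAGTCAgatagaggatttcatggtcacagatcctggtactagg
Mmp13, chr9:7272414-7272513: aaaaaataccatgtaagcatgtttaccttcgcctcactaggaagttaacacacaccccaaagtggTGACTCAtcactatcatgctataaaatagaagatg
Mmp14, chr14:54431498-54431597: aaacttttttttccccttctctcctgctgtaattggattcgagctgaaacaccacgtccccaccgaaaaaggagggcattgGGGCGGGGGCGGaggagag
The motif TGANTCA, searched on both strands over the 250 bases before a start, lay at position -44 in Mmp12 and -35 in Mmp13, and in none of the other members found. It was absent from the window of the first Mmp12 start. Of all 27025 genes with such windows, 7.82% held it in at least 1. GGGCGG, on either strand, was in 5 of the 7 genes (Mmp14, Timp2, Tgfbi, Emilin2 and Sulf2) and in 35.4% of all genes with such windows. PU.1 and TATA letters were searched as well. GAGGAAGT, the PU.1 letters, on either strand, lay at -88 of the first Mmp12 start and in 2.79% of all genes. TATAAA, on the gene's strand, lay at -16 in Mmp13 and at -244 of the first Sulf2 start, and in 8.94% of all genes. These are matches of letters only.

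Timp2, the inhibitor among the members, also takes part with Mmp14 in activating pro-MMP2 at the cell surface. It was the flattest of the 10, at 102 and 67.3 CPM in CD103+ DC1, 98.1 and 140 CPM in Rag2-/- ISG+ DC and 98.6 and 63.5 CPM in WT ISG+ DC. All 3 groups overlapped, and the highest library stood 2.20 times above the lowest. The log2 fold change was 0.49 ± 0.37 SE between populations and -0.55 ± 0.37 between hosts, and neither passed in any setting run. Per kilobase of transcript, the ratio of Mmp14 to Timp2 was 0.836 and 0.580 in CD103+ DC1, 1.52 and 0.985 in Rag2-/- ISG+ DC and 4.43 and 5.69 in WT ISG+ DC. The 3 groups did not overlap in this ratio of RNA levels.

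Levels of different genes were compared as CPM per kilobase of the longest protein-coding transcript in GENCODE M21. On this scale Tgfbi was the highest member in all 3 groups, with 136 ± 49.1 for CD103+ DC1, 670 ± 99.1 for Rag2-/- ISG+ DC and 913 ± 121 for WT ISG+ DC (SD, n = 2). Fn1 came next, at 64.4 ± 15, 345 ± 61.5 and 582 ± 144. In CD103+ DC1 the next were Timp2 (22.8 ± 6.56) and Mmp14 (16.7 ± 8.76), whose values overlap. In Rag2-/- ISG+ DC the third place was Emilin2 at 95.2 ± 23.0, ahead of Thbs1 (64.5 ± 22.8) and Sulf2 (53.7 ± 15.9), 3 genes whose mean ± SD ranges touch their neighbours. In WT ISG+ DC the third was Thbs1 at 331 ± 74.0, clear of Emilin2 (131 ± 18.7) and Mmp14 (108 ± 14.4), which lay within their spread of each other. Mmp19 (82.3 ± 21) and Mmp12 (67.6 ± 19.5) followed. Mmp13 was the lowest in every group, at 0.261 ± 0.369, 1.09 ± 1.47 and 8.45 ± 4.95.

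**Figure D3:**
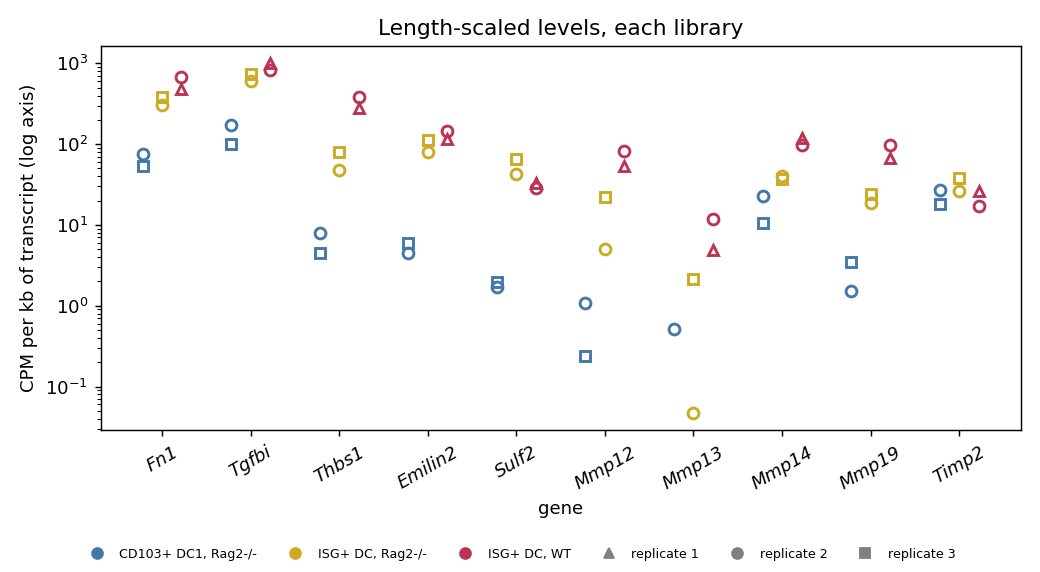
CPM per kilobase of transcript, on a log axis, with 1 symbol per library for each of the 10 genes. Tgfbi and Fn1 lie highest in every group, and the CD103+ DC1 library with 0 for Mmp13 cannot be drawn on a log axis.

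The other genes of the matrix system were taken from lists that leave out the 10 members. Leaving out either CD103+ DC1 library, neither of which is in the groups that the host comparison sets side by side, raised the host calls over all genes from 73 to 702 (replicate 2) and 801 (replicate 3). The host calls within the lists rose with them, as given for each. Among other metalloproteinase and TIMP genes, edgeR called 0 of the 11 tested in either comparison (0 and 1 at an unadjusted p under 0.05, where all genes tested gave 14.9% and 9.88%), and DESeq2 called 0 between populations and 1 between hosts. Without CD103+ DC1 replicate 2, edgeR called 1 as higher in each comparison, and likewise 1 between hosts without replicate 3. The gelatinase Mmp9 was at 10.8 CPM or less in every library and Mmp2 at 25.1 CPM or less. Mmp25 was not low, at 61.1 and 16.3 CPM in CD103+ DC1, 68.0 and 83.3 CPM in Rag2-/- ISG+ DC and 45.9 and 92.3 CPM in WT ISG+ DC. Neutrophil collagenase, Mmp8, was at 5.72 and 18.3 CPM in WT ISG+ DC and at 0.126 CPM or less in the other 4 libraries. Timp1 ranged from 2.19 to 16.6 CPM and Timp3 from 1.40 to 30.2 CPM.

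Of 18 ADAM and ADAMTS genes tested, 2 rose and 1 fell between populations, with a median log2 of 0.52. Adam9, a membrane-bound protease, rose by 1.64 ± 0.29 (SE, adjusted p = 0.00988) and Adam15, another of that kind, by 2.77 ± 0.57 (0.0227), whereas Adam19 fell by 2.82 ± 0.51 (0.0115). Adam15 was 4.22 without CD103+ DC1 replicate 2 and 2.11 without replicate 3, Adam19 was -3.68 without Rag2-/- ISG+ DC replicate 3, and Adam9 no longer passed without that library (1.40). Between hosts none of this list passed in edgeR (2 at an unadjusted p under 0.05), with 2 calls in DESeq2 and 2 without either CD103+ DC1 library. Of 19 plasminogen-system, cathepsin and activator genes, 6 rose and 1 fell, with a median of 1.5. Cathepsin S, Ctss, was 555 and 553 CPM in CD103+ DC1 against 2231 and 2223 CPM in Rag2-/- ISG+ DC (log2 2.01 ± 0.21, adjusted p = 0.00079). Cathepsin H, Ctsh, rose by 2.23 ± 0.27 (0.00154), and the cathepsin inhibitor cystatin C, Cst3, fell by 2.41 ± 0.23 (0.000527). The urokinase gene Plau rose by 1.85 ± 0.43 (0.0405), a call lost without Rag2-/- ISG+ DC replicate 3 (1.27). Its receptor Plaur was at 2.66 and 0 CPM in CD103+ DC1 and at 21.8 and 40.6 CPM in Rag2-/- ISG+ DC (log2 4.34 ± 0.93, adjusted p = 0.0283). The call for Plaur was lost with limma-voom and in a fit of the 4 libraries alone, and leaving out CD103+ DC1 replicate 3 gave 3.57. With replicate 2 left out that group is at 0. Leaving out CD103+ DC1 replicate 2 gave 11 rises in this list, and leaving out Rag2-/- ISG+ DC replicate 3 gave 4. Between hosts, cathepsin L, Ctsl, was the 1 call of this list, at 108 and 104 CPM in Rag2-/- ISG+ DC and 447 and 638 CPM in WT ISG+ DC (log2 2.36 ± 0.37, adjusted p = 0.0271), and it was lost without either Rag2-/- ISG+ DC library (2.39 and 2.33). The host count was 7 without either CD103+ DC1 library and 2 without WT ISG+ DC replicate 1.

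Of 25 matrix receptors tested, 5 rose and 1 fell between populations, with a median log2 of 0.80. Lrp1, an endocytic receptor that clears protease and thrombospondin complexes, rose by 2.52 ± 0.31 (SE, adjusted p = 0.00162). The mannose receptor Mrc1, which takes up collagen, rose by 2.71 ± 0.34 (0.00173), and the fibronectin receptor subunit Itga5 by 2.24 ± 0.31 (0.00284). The thrombospondin receptors Cd47 and Cd36 did not pass. Cd36 was 71.2 and 66.3 CPM in CD103+ DC1, 28.6 and 75.5 CPM in Rag2-/- ISG+ DC and 194 and 291 CPM in WT ISG+ DC. Between hosts the proteoglycan Sdc4 was the 1 call, with 68.2 and 79.8 CPM in Rag2-/- ISG+ DC and 347 and 346 CPM in WT ISG+ DC (log2 2.22 ± 0.31, adjusted p = 0.0159), lost without Rag2-/- ISG+ DC replicate 2 (2.11). The count of rises between populations was 11 without CD103+ DC1 replicate 2. The 1 fall, of the collagen receptor subunit Itga1, was joined by 1 more in that setting and lost without Rag2-/- ISG+ DC replicate 3. Between hosts the rises numbered 6 without either CD103+ DC1 library, 2 without Rag2-/- ISG+ DC replicate 3 and 3 without WT ISG+ DC replicate 1, and falls numbered 4, 5 and 3 without CD103+ DC1 replicate 2, CD103+ DC1 replicate 3 and WT ISG+ DC replicate 1.

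Of 25 other matricellular and myeloid matrix genes, 3 rose and none fell between populations, with a median of -0.18. The crosslinking enzyme Tgm2 rose by 3.43 ± 0.47 (SE, adjusted p = 0.00262). Tgm2 was 4.51 without CD103+ DC1 replicate 2 and 2.85 without replicate 3. Ecm1 rose by 1.74 ± 0.35 (0.021) and the clotting transglutaminase F13a1 by 1.36 ± 0.32 (0.0425). Ecm1 passed in 12 of 15 alternative settings and F13a1 in 11. Ecm1 no longer passed without either Rag2-/- ISG+ DC library (1.70 and 1.78), and F13a1 not without Rag2-/- ISG+ DC replicate 3 (0.95). Osteopontin (Spp1) and versican (Vcan), also matrix products of myeloid cells, did not pass. Spp1 was 157 and 175 CPM, 241 and 222 CPM, and 112 and 96.3 CPM, and Vcan ranged from 128 to 188 CPM over all 6 libraries. Between hosts none of this list passed in edgeR, with 8 at an unadjusted p under 0.05, while DESeq2 called 5 as higher and 1 as lower. The higher calls were 7 and 8 without CD103+ DC1 replicate 2 or 3, and 2 and 1 without WT ISG+ DC replicate 1 or 2. Among 17 heparan sulfate genes none passed in either comparison (2 at an unadjusted p under 0.05 in each), with DESeq2 calling 1 as higher between populations. Without 1 library, 1 or 2 of them passed in that comparison in 5 of the 6 fits. Sulf1, the paralog of Sulf2, was at 11 CPM or less in all libraries. Of 24 TGF-beta genes, 2 rose between populations, with a median of 0.65. The co-receptor Eng rose by 2.89 ± 0.52 (adjusted p = 0.0113) and the repressor Ski by 1.24 ± 0.28 (0.0401). Eng was 3.63 without CD103+ DC1 replicate 2 and 2.47 without replicate 3. Eng passed in 13 of 15 alternative settings and Ski in 10. Ski was lost without Rag2-/- ISG+ DC replicate 2 or 3 or WT ISG+ DC replicate 1. That list held 8 rises without CD103+ DC1 replicate 2 and 4 without replicate 3. Tgfb1 itself was at 109 and 84.6 CPM, 152 and 198 CPM, and 192 and 254 CPM, without passing.

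Fibroblasts and fibrosarcoma cells could bring matrix transcripts into a DC sort, so the levels of their marker genes are set beside those of the members. The part of such cells in the members' differences was not tested. The list covers tumor cells and host fibroblasts alike and does not separate them. The 36 listed genes summed to 2179 and 1021 CPM in CD103+ DC1, 1955 and 1153 CPM in Rag2-/- ISG+ DC and 1578 and 181 CPM in WT ISG+ DC. Their sum was highest in CD103+ DC1 replicate 2, where the members summed to 1348 CPM, and lowest in WT ISG+ DC replicate 2, where the members were highest at 11906 CPM. In WT ISG+ DC replicate 1 the fibroblast sum was 1578 CPM and the member sum 9866 CPM. Of the 36 genes, 11 were at 0 in WT ISG+ DC replicate 2, among them Dcn, Lum, Pdgfra and Fap. Col3a1 was at 8.28 CPM there, against 558 CPM in CD103+ DC1 replicate 2. Lum and Fap were also at 0 in both replicate 3 libraries and in WT ISG+ DC replicate 1, and Pdgfra in the latter. Sparc and Prrx1 instead had their highest estimated counts in WT ISG+ DC replicate 1, at 1128 and 370. In CD103+ DC1 replicate 2, a deeper library, they were at 682 and 330. The 10 defining genes summed to 1115 and 451 CPM, 1089 and 660 CPM, and 477 and 54.4 CPM. Of the 34 tested, edgeR called none between populations (1 at an unadjusted p under 0.05) or between hosts (7), and DESeq2 called 1 as lower in WT. The genes called lower in WT numbered 5, 6 and 8 without CD103+ DC1 replicate 2, CD103+ DC1 replicate 3 and WT ISG+ DC replicate 1, and 11 with the replicate number as a block. Collagen I, Col1a1, was at 58.8 and 39.1 CPM, 131 and 115 CPM, and 94.2 and 19.9 CPM.

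Summed macrophage and monocyte markers rose in the same order of groups as the summed members, and their part in the members' differences was not tested. Fewer cells of a type and less RNA per cell cannot be told apart in bulk samples. The 21 genes summed to 828 and 1012 CPM in CD103+ DC1, 3381 and 5215 CPM in Rag2-/- ISG+ DC and 12567 and 13608 CPM in WT ISG+ DC, and none was at 0 in all libraries. Of these 13 rose between populations and none fell, with a median log2 of 2.29. Csf1r, the receptor for M-CSF, was at 32.8 and 40.9 CPM, 436 and 620 CPM, and 1243 and 1121 CPM (log2 3.84 ± 0.29 SE between populations, adjusted p = 0.000154). Between hosts 16 of the 21 had a positive log2 fold change, with a median of 1.59, and the rest a negative one. Those that passed as higher in WT numbered 3, led by arginase 1, Arg1, from 60.5 and 90.7 CPM to 2095 and 3097 CPM (log2 5.10 ± 0.46, adjusted p = 0.00477). The host count was 1 without Rag2-/- ISG+ DC replicate 2, 5 without WT ISG+ DC replicate 1 and 13 without either CD103+ DC1 library. Platelets store thrombospondin-1, and the 11 platelet genes summed to 12.4 and 24.5 CPM, 16.4 and 16.8 CPM, and 82.8 and 93.3 CPM, nearly all of it Pf4. Gp1bb, Gp5 and Clec1b were at 0 in all 6 libraries, and no platelet gene of the 4 tested passed in edgeR between populations or hosts (0 and 2 at an unadjusted p under 0.05), while DESeq2 called 1 as higher between hosts. The 12 endothelial genes summed to 109 and 76.1 CPM, 195 and 234 CPM, and 310 and 265 CPM, and the 11 neutrophil genes found to between 6.78 and 29.6 CPM, with S100a8, Ngp and Camp at 0 throughout. Of 10 endothelial genes tested 1, Flt1, rose between populations (log2 2.31 ± 0.55 SE, adjusted p = 0.0465). Flt1 passed in 8 of 15 alternative settings, and was lost without any 1 of the 4 ISG+ DC libraries. No endothelial gene passed between hosts (4 at an unadjusted p under 0.05, 2 calls in DESeq2). Neither of the 2 neutrophil genes tested passed, at an unadjusted p under 0.05 or otherwise. The part of these cells was not tested either.

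**Figure D4:**
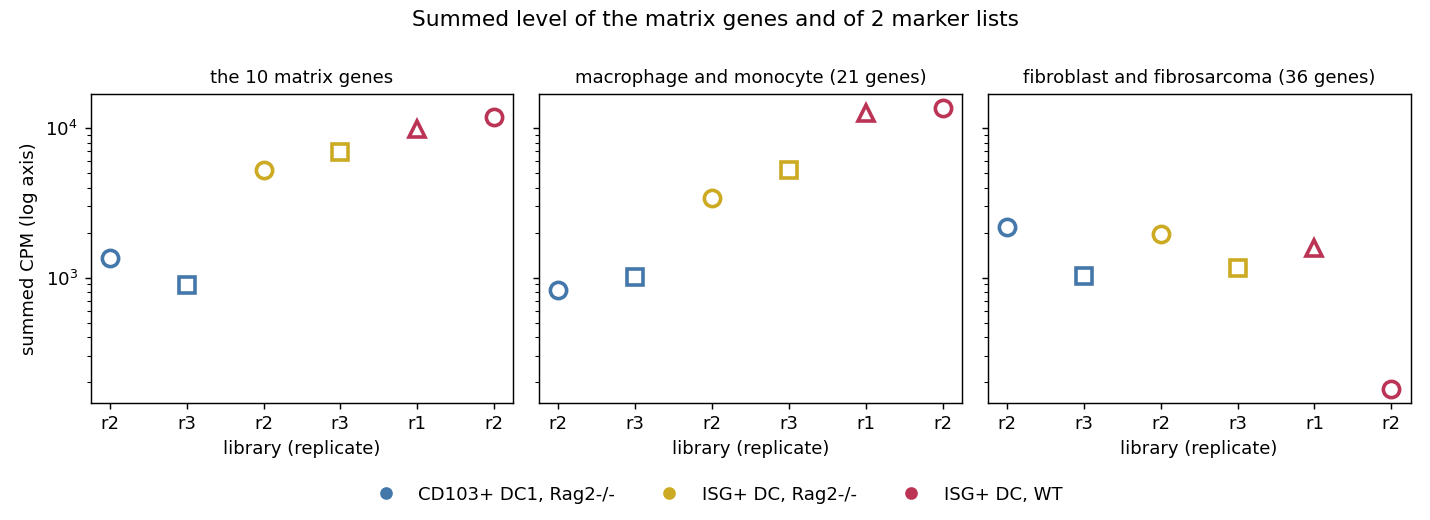
Summed CPM of the 10 matrix genes and of the marker lists, with 1 symbol per library. The fibroblast sum is lowest (181 CPM) in WT ISG+ DC replicate 2, the library in which the matrix genes sum highest (11906 CPM). In WT ISG+ DC replicate 1 these sums are 1578 and 9866 CPM. The macrophage sum is higher in both ISG+ DC groups than in CD103+ DC1. The part of either cell type was not tested.

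For each member, the 3 non-member genes with the most similar profile over the 6 libraries were found among 8553 genes averaging 10 CPM or more, by the root mean square (rms) difference of centred log2 CPM. Mmp14 had the closest match, Rgl1 (rms 0.0955), then G6pdx (0.148) and Maf (0.189). Emilin2 was nearest to Hr (0.125), Cybb (0.218) and Tlr2 (0.228). Fn1 was nearest to Gp49a (0.160) and Mmp19 to Cd14 (0.192), Il1rn (0.271) and Clec7a (0.298). Thbs1 was nearest to Plxdc2 (0.272), Mmp12 to Prdm1 (0.268), Sulf2 to S100a4 (0.163) and Timp2 to Ube3c (0.127). Mmp13 had no close neighbour, with Ier3 at 0.709. The measure rests on 6 libraries in 3 groups, so many genes with the same order of groups come close by it.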

How the data were processed

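Estimated counts per gene, made by the authors with RSEM 1.3.1 and Bowtie 1.2.3 on mm9 per the submitters' processing notes, were deposited without normalization. Library preparation used the SMARTer Stranded Total RNAseq Pico Input kit, per the labels' protocols, although the labels' molecule field reads polyA RNA. The sources used here do not state the annotation, strand setting or read filters. RSEM divides reads shared by similar genes, and 16.1% of values were not whole. Depth ran from 6023510 to 15368616 counts per library.

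Counts were rounded and fitted in R 4.3.3 with edgeR 4.0.16 (filterByExpr, TMM factors, glmQLFit and glmQLFTest over all 6 libraries, two-sided, Benjamini-Hochberg over 13223 genes, threshold 0.05). Fold changes carry standard errors taken from the F statistic. Alternatives were DESeq2 1.42.0, limma-voom (limma 3.58.1), other scalings and filters, 4 libraries alone, a replicate block, ISG+ DC of both hosts pooled and each library left out. The procedure was run on simulated data with changes placed only in genes averaging 10 CPM or more. That run does not cover genes below this level, such as Mmp13, and is no check of any single call. Of 289 list entries 288 were found, 5 of them under older symbols. Named genes are the 10 members, up to 3 called genes per list with the smallest p, a fixed set and the nearest profiles. Camp, Ngp, S100a8, Gp1bb, Gp5, Clec1b, Lum, Pdgfra and Fap (at 0), Itga1 (the 1 fall of its list) and Mmp25 were chosen after their values were seen. The members and lists were chosen with earlier results of these data known. Replicate numbers are not said to mark shared experiments, and the fit above did not pair them. Across genes, the replicate 2 minus replicate 3 differences of the 2 Rag2-/- groups had a correlation of -0.00239. With 1 such difference per group, this cannot settle whether same-numbered libraries were paired. Replicates of a group differed beyond sampling noise (chi-square per degree of freedom 41.1 to 93.0), so none was merged. A few genes picked by nearest profile are not reported here.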

Additional observations from a re-analysis of the deposited data

How the results depend on the processing

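Between populations 488 genes passed, 1078 with DESeq2, 1087 with no filter on low counts, 297 in a fit of the 4 libraries alone, and 278 (without Rag2-/- ISG+ DC replicate 3) to 2068 (without CD103+ DC1 replicate 2) with 1 library left out. Members called higher stayed between 6 and 8 over all settings, and none was called lower in any. Mmp12 was lost with limma-voom and in the 4-library fit, and Mmp14 was gained with DESeq2 (1.18), with no filter (1.2) and in 1 fit without a library. The log2 fold change of Mmp13 between populations reversed to -2.50 without Rag2-/- ISG+ DC replicate 3, and reached 8.04 without CD103+ DC1 replicate 2, which leaves that group at 0, so the latter is no measured size.

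Between hosts 73 genes passed, 545 with DESeq2, 555 with no filter, 43 at a mean of at least 5 CPM, 324 with limma-voom, 444 in a fit of the 4 libraries alone, and 27 (without Rag2-/- ISG+ DC replicate 2) to 801 (without CD103+ DC1 replicate 3) with 1 library left out. Members called higher numbered 1, and 4 with DESeq2 and with no filter (Thbs1, Mmp12, Mmp14 and Mmp19), 5 with limma-voom (these and Fn1), 3 in the 4-library fit (Thbs1, Mmp14 and Mmp19), and 0 to 5 with 1 library left out, 5 without either CD103+ DC1 library. Members called lower numbered 0 to 1 with 1 library left out. The cause of these moves was not tested. No member other than Mmp13 changed direction in any setting.

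With the replicate number as a block, 715 genes and 8 members passed between populations, the 1 more being Mmp14 (1.31). Between hosts, which share 1 number, the same block was added after seeing the data. WT ISG+ DC replicate 1 has no partner, so that fit sets replicate 2 alone against Rag2-/- ISG+ DC. It gave 258 genes and 3 members called higher (Thbs1, Mmp12 at 2.96 and Mmp19 at 2.57).

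A count of 3 in a library equals 0.189 to 0.514 CPM, and 2 of the 4 Rag2-/- libraries lie at or under 3 counts for Mmp13. These limits cover counting error only.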
